A study of Mus musculus with 42 samples.

Results

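RNA sequencing of the offspring of males given di(2-ethylhexyl) phthalate (DEHP), a plasticizer, was compared between 4 exposed libraries, with both paternal doses pooled, and 2 control libraries. The comparison took every gene of the deposited expression table with an Ensembl mouse identifier, 12988 in all, and asked which genes were shifted the same way in all 4 exposed libraries. Of these genes, 12987 reached at least 1 CPM (counts scaled to library size, per 1e6) in 2 or more libraries and were tested. These 6 libraries belong to a series of 42 samples, of which the 2 deposited tables hold 15: the 6 RNA libraries and 9 libraries of reduced representation bisulfite sequencing (RRBS), which reads DNA methylation in CpG-rich fragments.

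The low group (2 RNA libraries) came from wild-type C57BL/6J fathers given 2.5 mg/kg/day of DEHP, the high group (2 libraries) from fathers given 25 mg/kg/day, and the control group (2 libraries) from fathers given vehicle. Dosing lasted 67 days, about the length of 2 rounds of sperm production per the design text, and the females they were mated with were unexposed. The labels give the offspring as C57BL/6 * DBA/2J, wild type and at embryonic day 7.5, the stage of gastrulation. Embryo and extra-embryo samples are both listed for RNA, but the columns name only a treatment and a number, so the tissue of each library and whether same-numbered libraries share a litter are not given. The labels do not say how many embryos or litters a library holds, so the p-values measure only the spread between these libraries. Since the doses are pooled, the spread within the exposed group includes any difference between doses.

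The libraries held RNA of the epiblast, the primitive streak and the visceral endoderm together. Pou5f1, an epiblast transcription factor, was at 357 to 541 CPM in the exposed libraries, with 415 and 498 CPM in the controls. The streak factor T was at 204 to 287 CPM in the exposed libraries, with 276 and 226 CPM in the controls, and Afp, made by the visceral endoderm, was at 131 to 169 CPM against 141 and 95.6 CPM. Prl3d1, a marker of trophoblast giant cells, was at 28.4 CPM in low 1 and at 0.36 to 2.37 CPM in the other exposed libraries, against 9.72 and 0.75 CPM in the controls. Elf5 (extraembryonic ectoderm), Dcn (decidua), Hba-x (blood) and Ptprc (leukocytes) were not among the genes tested. Other markers of these tissues were tested, though none of leukocytes. For extraembryonic ectoderm, Cdx2 was at 13.3 to 52.6 CPM with exposure and 44.1 and 29.6 CPM without. Tfap2c was at 5.97 to 19.4 CPM, against 7.67 and 4.90 CPM. For decidua, Pgr was at 2.87 to 3.30 CPM, against 3.02 and 3.13 CPM. Prl8a2 was at 0.32 to 3.32 CPM, against 2.49 and 1.53 CPM. Gata1 (blood) was at 1.90 to 2.69 CPM, against 2.34 and 2.40 CPM. All samples are labelled male, but Xist, the RNA of the inactive X chromosome, was at 442 to 742 CPM in the exposed libraries, with 712 and 525 CPM in the controls, while the Y-linked Ddx3y was at 6.74 to 15.02 CPM in the exposed group, and 8.69 and 17.8 CPM in the control group. The libraries therefore go against the label. Low 1 stood apart on the first principal component (-20.8, with the other 5 libraries between -4.51 and 12.6), and control 2 on the second (-15.1, with the others between -2.56 and 7.50). Read depth is not stated. Expressed in the smallest step of each column, the column totals in units of 1e6 steps were 153 to 194 for exposed libraries and 186 and 189 for controls, which gives their depth relative to each other only.

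No single gene passed the test, but more genes lay above both controls in all 4 exposed libraries than lay below them. Limma, a linear model with a spread shared across genes, called 0 of 12987 genes at an adjusted p under 0.05 (0%), and the smallest adjusted p was 0.838. At an unadjusted p under 0.05 there were 402 higher genes (3.1%) and 177 lower genes (1.36%). In 1182 genes (9.1%) the lowest exposed library was above the higher control, and in 604 genes (4.65%) the highest exposed library was below the lower control. If exposed and control libraries were exchangeable, a share of 0.133 of genes would lie beyond both controls in either direction by order alone. In all, 1786 of 12987 genes did, close to that share. A positive log2 fold change was found in 54.4% of genes, and the median over all genes was 0.0085. This split depends on the scale: after quantile normalization 956 genes lay above and 791 below, and with each library rescaled to 1 total over its gene rows 957 lay above and 776 below. The shifts were small, with a median log2 fold change of 0.11 among the genes above both controls and -0.14 among those below. The nearest exposed and control libraries were more than 0.2 apart on the log2 scale in 16 of the higher and 5 of the lower genes. All fold changes here are exposed over control on the log2(CPM + 1) scale, so that changes of low genes come out smaller than they are.

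Scand1, which encodes a protein with a SCAN domain, and Cox5a, a nuclear-encoded subunit of cytochrome c oxidase, had the smallest p among annotated genes above both controls. Scand1 (ENSMUSG00000046229, GRCm38 chromosome 2, 156311846 to 156312747) had 13.1 and 16.2 CPM in the low libraries, 14.4 and 14.9 CPM in the high libraries and 9.28 and 7.74 CPM in the controls. The lowest exposed library was thus clear of the higher control, by 0.45 on the log2 scale, and the fold was 1.65 (a log2 fold change of 0.72 with an SE of 0.10, adjusted p = 0.838). Cox5a (ENSMUSG00000000088, chromosome 9, 57521274 to 57532426) had 123 and 119 CPM in the low libraries, 125 and 126 CPM in the high libraries and 100 and 103 CPM in the controls. The 4 exposed values lay close together and all above both controls (mean 123 ± 3.02 CPM, SD, n = 4, against 101 ± 2.10 CPM, n = 2, a log2 fold change of 0.28 with an SE of 0.04, adjusted p = 0.838).

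The other 8 genes with the smallest p among those above both controls were Mocs3, Mrps24, Nr2f6, Sap30l, Glrx5, Pgp, Pop5 and Rab5if, and their adjusted p was 0.943 each. Mocs3, an enzyme of molybdenum cofactor synthesis, was at 6.86, 7.86, 8.01 and 7.03 CPM in the exposed libraries, against 5.08 and 4.58 CPM in the controls. Mrps24, a protein of the mitochondrial ribosome, was at 19.7, 20.4, 20.8 and 19.9 CPM with exposure and 16.2 and 14.7 CPM without. Glrx5, which carries iron-sulfur clusters in mitochondria, was at 50.9, 50.9, 51.5 and 49.6 CPM with exposure and 43.9 and 41.9 CPM without. In these 3 genes the range of the 4 exposed libraries was smaller than the distance to the nearer control, a spacing that the choice by small p favours. Nr2f6, an orphan nuclear receptor, averaged 42.7 ± 1.91 CPM in the exposed libraries and 34.04 ± 1.13 CPM in the controls (SD, n = 4 and 2). Sap30l, which binds the Sin3A corepressor complex, averaged 14.2 ± 0.652 CPM against 10.8 ± 0.221 CPM. Pop5, a subunit of ribonuclease P, averaged 22.1 ± 0.391 CPM against 17.965 ± 0.884 CPM. Pgp, a phosphatase that removes phosphoglycolate, and Rab5if had folds of 1.21 and 1.18. In the 10 genes the high minus low difference ran from -0.09 in Nr2f6 to 0.05 in Cox5a on the log2 scale, with unadjusted p from 0.194 to 0.943. A small p in the pooled fit, by which these genes were picked, favours a small difference between doses. Likeness of the doses can therefore not be read from them. Over all genes, 7.91% had an unadjusted p under 0.05 for high against low.

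Fst led the genes below both controls. It encodes follistatin, a secreted protein that binds and blocks activin. Fst (ENSMUSG00000021765, chromosome 13, 114452290 to 114458951) had 82.4 and 83.3 CPM in the low libraries, 81.6 and 76.5 CPM in the high libraries and 106.2 and 95.0 CPM in the controls. The exposed values lay close together, and the controls farther apart (a log2 fold change of -0.31 with an SE of 0.06, adjusted p = 0.943). Ppp3cb, a catalytic subunit of calcineurin, was at 67.3, 64.3, 62.7 and 69.4 CPM in the exposed libraries, against 74.2 and 78.3 CPM in the controls. Qk, an RNA-binding protein that acts in splicing, was at 129, 128, 127 and 144 CPM with exposure and 150 and 159 CPM without. Both had every exposed value below the controls, and high 2 was nearest to them in each. Ccnb1, the cyclin of mitotic entry, averaged 212 ± 6.77 CPM in the exposed libraries and 242 ± 18.003 CPM in the controls. Tfrc, the transferrin receptor, averaged 128 ± 4.85 CPM against 144 ± 7.14 CPM. The remaining 5 of the 10 were Atxn7l1, Dzip3 (a ubiquitin ligase), Map2 (a microtubule-associated protein), Ids (a lysosomal sulfatase) and Pgam1-ps2, a pseudogene whose reads may be shared with Pgam1. Their log2 fold changes ran from -0.36 in Dzip3 to -0.22 in Atxn7l1, and the adjusted p of each of the 10 was 0.943.

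**Figure D1:**
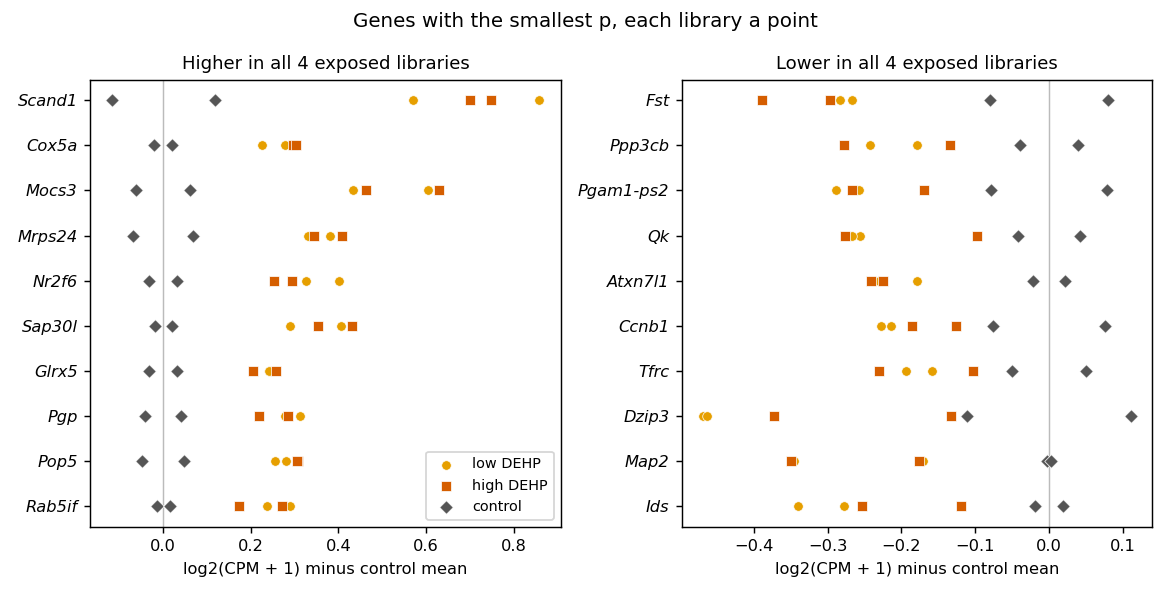
Each point is 1 library, placed by its log2(CPM + 1) minus the mean of the 2 controls, for the 10 annotated genes with the smallest p above both controls (left) and below both controls (right). Scand1 is farthest from its controls. The low (circles) and high (squares) libraries are intermixed in most rows, which the choice of genes by pooled p favours.

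Outside the annotated protein genes, the widest shift belonged to Gm23935, a predicted gene of 57 bases on chromosome 16 (11144125 to 11144181) whose function is not known. The low libraries held 128 and 125 CPM of it and the high libraries 192 and 195 CPM, against 56.6 and 36.6 CPM in both controls (3.38-fold, a log2 fold change of 1.76 with an SE of 0.24, adjusted p = 0.838). The lowest exposed value stood above the higher control by 1.13 on the log2 scale, and the high libraries were above the low ones (log2 difference 0.61, unadjusted p = 0.00728, adjusted p = 0.384). A fit with low, high and control as 3 groups, which keeps the dose difference out of the spread, gave the same log2 fold change with an adjusted p of 0.0494. An unnamed gene, ENSMUSG00000067833, was at 1.80, 1.91, 2.25 and 1.99 CPM in the exposed libraries, against 1.05 and 0.675 CPM. On the lower side, Gm13339 was at 81.2, 99.3, 54.2 and 95.8 CPM with exposure and 140 and 148 CPM without. Rpl17-ps5, a ribosomal protein pseudogene, was at 3.57, 3.56, 3.15 and 3.66 CPM with exposure and 4.58 and 4.76 CPM without. Of 383 tested genes that RefSeq lists as pseudogenes, 77 (20.1%) lay below both controls and 14 (3.66%) above, beside 4.65% and 9.1% of all genes, and their median log2 fold change was -0.08. Alignments that are not unique have a line of their own, apart from the genes (20.8 to 22.9% of a column). Beyond that, how the counting treated reads shared with the parent genes is not given in the sources used here.

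Among the 32 gene lists with members tested, those of the unfolded protein response, the respiratory chain and the cytosolic ribosome had the highest shares of members above both controls. The unfolded protein response adjusts the endoplasmic reticulum (ER) to its load of unfolded protein, through the sensors IRE1, PERK and ATF6, and raises chaperones and degradation factors. It is known to be active in secretory tissues, such as the visceral endoderm of the early embryo. The respiratory chain is built in mitochondria mostly from subunits encoded in the nucleus, and its genes are broadly expressed. Of 22 genes of the unfolded protein response, 20 had a positive log2 fold change, and 10 (45.5%) lay above both controls in all 4 exposed libraries, against 9.1% of all genes, with 0 below. Limma called 0 of the 22, with 7 higher at an unadjusted p under 0.05, and their median log2 fold change was 0.13. The same list had 6 members above both controls after quantile normalization, beside 956 of all 12987 genes. The list's mean log2 value was 6.47 and 6.50 in the low libraries and 6.37 and 6.53 in the high libraries, against 6.32 and 6.37 in the controls. High 1 was thus barely above control 2.

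Chaperones of the ER lumen made up most of the shifted members. Hspa5, the chaperone BiP that holds the sensors inactive, had 833 and 875 CPM in the low libraries, 798 and 926 CPM in the high libraries and 728 and 760 CPM in the controls (a log2 fold change of 0.20 with an SE of 0.06). Calr, the calcium-binding chaperone calreticulin, was at 616, 606, 605 and 630 CPM in the exposed libraries, against 577 and 533 CPM. Hsp90b1, the ER member of the HSP90 family, was at 1148, 1167, 1092 and 1258 CPM with exposure and 1064 and 1070 CPM without. High 2 was highest and high 1 lowest of the exposed libraries in all 3. Among disulfide isomerases, Pdia3 was at 651, 640, 613 and 677 CPM with exposure and 593 and 584 CPM without. Pdia6 was at 394, 406, 398 and 426 CPM with exposure and 384 and 371 CPM without. Of the regulators, Xbp1, the transcription factor that IRE1 activates by splicing, was at 52.5, 60.1, 53.4 and 63.0 CPM with exposure and 46.4 and 46.9 CPM without (a log2 fold change of 0.29 with an SE of 0.08). Xbp1 had the highest log2 fold change of the list, and Manf, a secreted factor of the stressed ER, followed among the shifted members at 105.5, 110.1, 97.3 and 107.9 CPM with exposure and 91.2 and 89.2 CPM without. The rest of those above both controls were Edem1, Sdf2l1 and Hyou1. Genes of the PERK branch overlapped the controls: Atf4 was at 160.5, 142, 154 and 146 CPM with exposure and 148.1 and 148.3 CPM without, and Ddit3, which encodes the factor CHOP, had a log2 fold change of -0.05 (SE 0.11). The adjusted p of these genes was 0.943 or above.

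The ER stress response element is the site that ATF6 and NF-Y are known to bind in chaperone promoters, and the promoters of 4 shifted chaperones are shown because each holds it within 250 bases upstream of the annotated start. It was searched as CCAAT, any 9 bases and CCACG on both strands of RefSeq promoters (GRCm38.p6, 250 bases before to 50 after the start). Capitals mark the bases of the match, read as ATTGG and CGTGG where it lies on the other strand.
Hspa5 (chr2:34771840-34772089, plus strand): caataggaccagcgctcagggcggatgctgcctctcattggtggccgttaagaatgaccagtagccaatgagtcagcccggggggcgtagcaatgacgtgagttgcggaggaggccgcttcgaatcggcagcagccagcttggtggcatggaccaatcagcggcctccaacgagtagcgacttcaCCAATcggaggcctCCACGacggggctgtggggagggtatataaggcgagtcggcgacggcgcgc
Calr (chr8:84846932-84847181, minus strand): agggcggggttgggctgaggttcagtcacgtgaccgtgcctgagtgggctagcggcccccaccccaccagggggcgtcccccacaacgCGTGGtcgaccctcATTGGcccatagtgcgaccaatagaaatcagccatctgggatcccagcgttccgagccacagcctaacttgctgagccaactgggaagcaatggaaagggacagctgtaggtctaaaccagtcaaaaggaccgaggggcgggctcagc
Pdia6 (chr12:17266339-17266588, plus strand): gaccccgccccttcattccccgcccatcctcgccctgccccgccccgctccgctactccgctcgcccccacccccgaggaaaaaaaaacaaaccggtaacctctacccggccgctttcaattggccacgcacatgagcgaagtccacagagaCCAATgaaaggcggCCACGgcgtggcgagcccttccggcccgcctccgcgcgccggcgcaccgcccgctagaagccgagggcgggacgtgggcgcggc
Hsp90b1 (chr10:86705445-86705694, minus strand): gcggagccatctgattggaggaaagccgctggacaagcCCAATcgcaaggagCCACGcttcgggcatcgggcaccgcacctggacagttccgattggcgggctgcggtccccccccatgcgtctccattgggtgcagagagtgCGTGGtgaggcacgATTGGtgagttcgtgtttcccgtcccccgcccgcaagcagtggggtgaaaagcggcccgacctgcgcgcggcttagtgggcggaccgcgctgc
The match was in 8 of the 20 list members with a promoter in the table (40%), in 0.181% of the 9931 genes tested that have one and in 0.13% of all 27025 promoters. Of the 8, 4 lay above both controls: Calr, Hsp90b1, Hspa5 and Pdia6. Of the 12 members without a match, 4 lay above both controls too, so the shift was found with and without the match in this window.

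Of 73 nuclear genes of the respiratory chain tested, 70 had a positive log2 fold change. Among them 32 (43.8%) lay above both controls and 0 below, with 0 called and 16 higher at an unadjusted p under 0.05. Over all genes tested 54.4% were positive, 9.1% lay above both controls, 4.65% lay below, and 3.1% were higher at that limma p. The median log2 fold change was 0.08, and the list's mean log2 value was 6.04, 6.07, 6.09 and 6.02 in the exposed libraries, against 5.97 and 5.98 in the controls. All 4 exposed means were above both control means, by little. After quantile normalization 25 members lay above both controls, and without high 2, 52. Over all 12987 genes tested, 956 and 1754 did. The shift was spread over the complexes. Of complex I, which takes electrons from NADH, 12 of 36 subunits lay above both controls. The counts were 2 of 4 for complex II, 4 of 9 for complex III, 5 of 10 for complex IV and 9 of 13 for the ATP synthase, while Cycs, cytochrome c itself, overlapped the controls. Ndufa5, of complex I, was at 25.3, 25.6, 25.5 and 24.8 CPM in the exposed libraries, against 21.9 and 21.2 CPM (a log2 fold change of 0.22 with an SE of 0.05). Uqcrfs1, the iron-sulfur protein of complex III, was at 79.6, 79.7, 81.6 and 78.6 CPM with exposure and 71.2 and 71.9 CPM without (a log2 fold change of 0.16 with an SE of 0.04). Sdhd, an anchor of complex II, was at 128, 129, 131 and 133 CPM with exposure and 121 and 124 CPM without. In Ndufa5 and Uqcrfs1 the 4 exposed libraries lay closer to each other than to the controls. Naming members from those above both controls favours such spacing. Atp5j2, a small subunit of the ATP synthase, was at 80.0, 83.4, 86.5 and 81.6 CPM with exposure and 74.4 and 76.6 CPM without. The lowest member was Ndufc2 of complex I, with a log2 fold change of -0.07 (SE 0.05). The genes encoded in mitochondrial DNA were not among the genes tested.

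**Figure D2:**
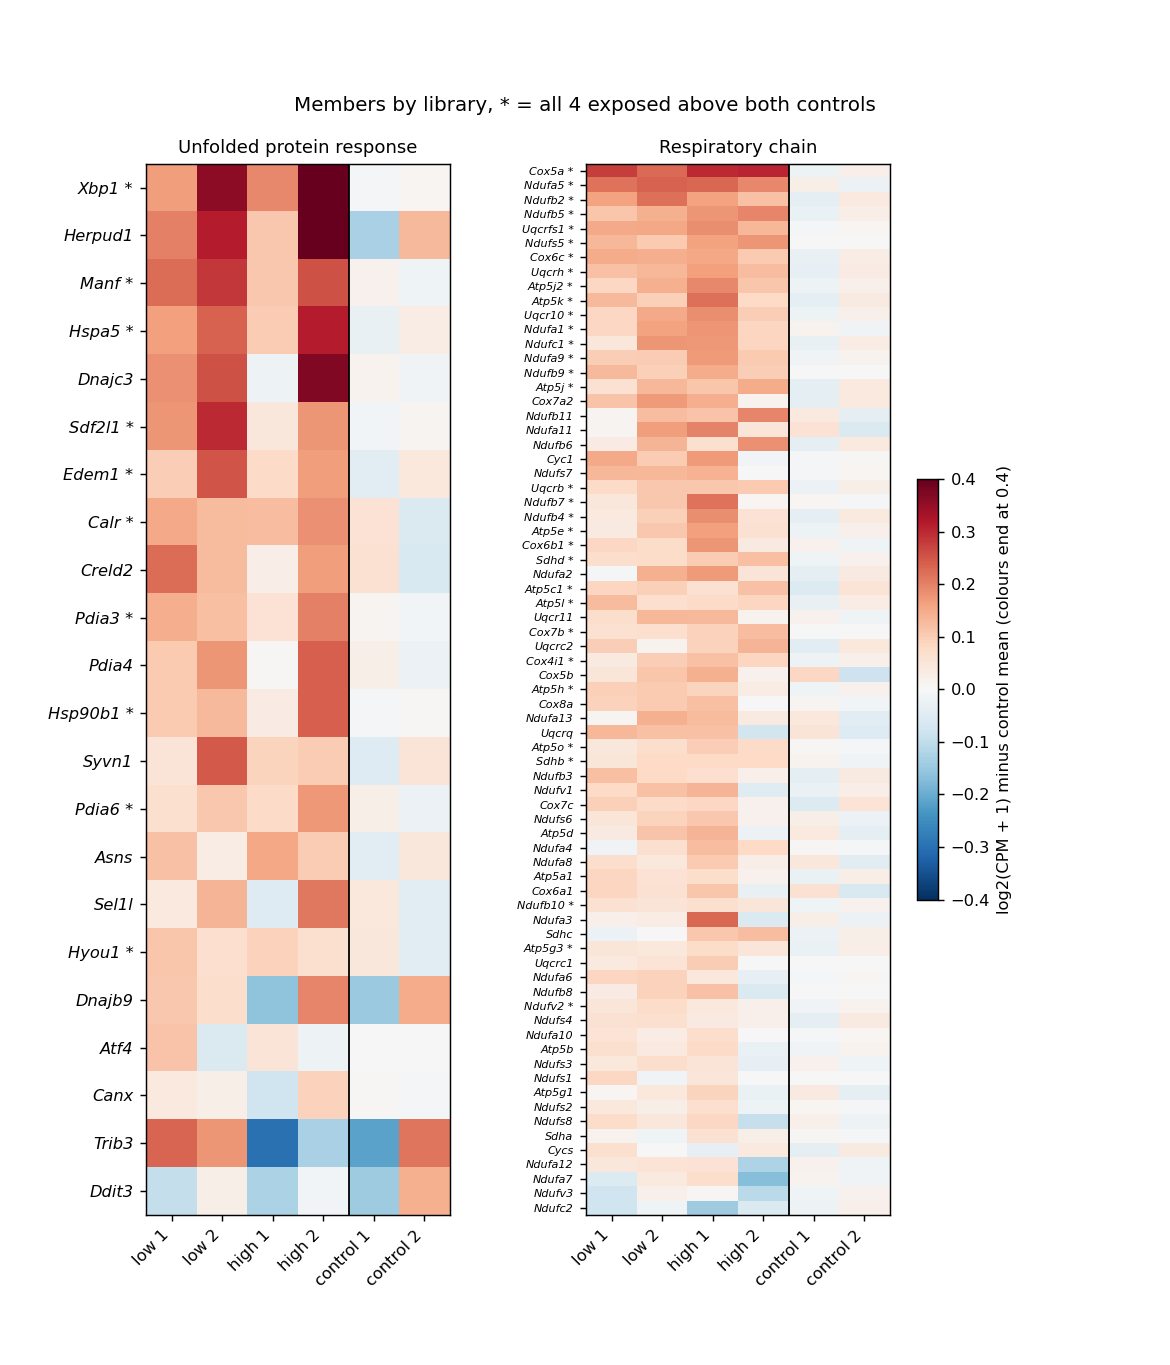
Colour gives log2(CPM + 1) minus the mean of the 2 controls for each member (rows, sorted by log2 fold change) in each library (columns, exposed left of the line and controls right of it), with colours ending at 0.4. Asterisks mark the 10 of 22 unfolded protein response genes and 32 of 73 respiratory chain genes with all 4 exposed libraries above both controls.

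NRF1, nuclear respiratory factor 1, is known to bind promoters of many respiratory chain genes. Its palindrome, searched as GCGCA, any base and GCGC on both strands, was in 15 of 61 list members with a promoter in the table (24.6%), in 10.9% of the 9931 genes tested with one and in 4.78% of all promoters. The promoters of Ndufa5 and Ndufs5 are shown as members above both controls that hold it, with the match in capitals.
Ndufa5 (chr6:24527691-24527940, minus strand): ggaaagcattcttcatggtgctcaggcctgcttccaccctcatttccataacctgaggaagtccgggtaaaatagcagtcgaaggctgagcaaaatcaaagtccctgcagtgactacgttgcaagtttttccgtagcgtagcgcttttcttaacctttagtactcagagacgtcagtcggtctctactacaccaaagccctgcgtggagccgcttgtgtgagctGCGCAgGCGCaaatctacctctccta
Ndufs5 (chr4:123718187-123718436, minus strand): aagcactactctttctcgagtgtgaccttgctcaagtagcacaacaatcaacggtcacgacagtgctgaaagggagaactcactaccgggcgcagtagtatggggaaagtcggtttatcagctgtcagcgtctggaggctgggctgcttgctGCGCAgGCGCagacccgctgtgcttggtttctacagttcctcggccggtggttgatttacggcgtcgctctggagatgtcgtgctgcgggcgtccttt
Of the 15 members with the match, 8 lay above both controls, and of the 46 without it, 20 did. Ndufs5 was at 22.4, 21.98, 22.9 and 23.1 CPM in the exposed libraries, against 20.4 and 20.3 CPM in the controls.

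Genes of protein synthesis were examined next. Of 78 cytosolic ribosomal protein genes, 72 had a positive log2 fold change, 26 (33.3%) lay above both controls and 0 below, with a median of 0.07. That median was 0.039 without control 1. Limma called 0 of them, and 12 were higher at an unadjusted p under 0.05. Beside these stand 54.4% positive, 9.1% above both controls, 4.65% below and 3.1% higher at that p over all genes tested. Rpl38, of the large subunit, was at 203, 203, 207 and 199.5 CPM in the exposed libraries, against 180 and 188 CPM (a log2 fold change of 0.14 with an SE of 0.04). Rps2, of the small subunit, was at 1392, 1431, 1472 and 1388 CPM with exposure and 1242 and 1285 CPM without. High 2 was the lowest exposed library for both. The list's mean log2 value was 8.98, 8.98, 9.04 and 8.92 in the exposed libraries, against 8.88 and 8.94 in the controls, so high 2 lay between the controls, and without high 2 the count above both controls was 51. Without control 2, 53 lay above control 1. Over all 12987 genes these counts were 1754 without high 2 and 2777 without control 2. Ribosomal protein genes have many near-identical pseudogenes, and their counts are uncertain to that extent. Mitochondrial ribosomal proteins and the proteasome were looked up by symbol after the values were seen. Of 76 mitochondrial ribosomal protein genes 75 had a positive log2 fold change. Among them 29 (38.2%) lay above both controls and 0 below, beside the same shares over all genes (9.1% and 4.65%). Mrps26 was at 30.2, 29.2, 31.2 and 28.7 CPM with exposure and 26.1 and 25.1 CPM without. Of 35 proteasome subunits 34 were positive, with 7 (20%) above both controls, and Psma4 was at 157, 158, 160 and 161 CPM with exposure and 146 and 150 CPM without. The log2 fold changes were small here as well, with medians of 0.07 and 0.06.

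Among stress lists, p53 targets had 6 of 24 members (25%) above both controls and oxidative stress genes 5 of 26 (19.2%), with 0 below in each, while over all genes 9.1% lay above and 4.65% below. The immediate early and heat shock list had 3 of 21 (14.3%) above and 0 below. Phlda3, a p53 target that restrains AKT, was at 7.36, 7.38, 8.73 and 7.25 CPM in the exposed libraries, against 5.67 and 5.08 CPM (a log2 fold change of 0.44 with an SE of 0.09). Plk2, a kinase induced by p53, was at 4.29, 3.55, 4.18 and 3.76 CPM with exposure and 3.03 and 2.88 CPM without. Mdm2 and Cdkn1a overlapped the controls. Mdm2, the ligase that degrades p53, was at 42.1, 42.1, 42.5 and 41.5 CPM with exposure and 39.3 and 41.5 CPM without, and Cdkn1a, the cell cycle inhibitor p21, was at 7.50, 10.6, 13.5 and 10.1 CPM with exposure and 10.6 and 10.8 CPM without. The median of the p53 list was 0.05, and it was -0.0067 without control 1 and 0.13 without control 2. Without control 2, 11 of 24 lay above control 1, beside 2777 of all 12987 genes. Of the oxidative stress genes, Sod1, the cytosolic superoxide dismutase, was at 149.9, 147.0, 148.0 and 147.4 CPM with exposure and 136.9 and 136.8 CPM without, and Gsr, glutathione reductase, at 45.8, 45.8, 45.3 and 47.8 CPM with exposure and 42.8 and 41.5 CPM without. Txn1, Srxn1 and Nqo1 were the other 3 above both controls, while Gclc and Txnrd1, which like Srxn1 and Nqo1 are targets of the factor Nrf2, overlapped with log2 fold changes of -0.02 and 0.02. For PPAR targets and fatty acid oxidation, a pathway known to respond to phthalates in rodent liver, 4 of 24 genes (16.7%) lay above both controls. Those were Acaa1a, Hadha, Acadvl and Acadm, all enzymes of beta-oxidation. Acaa1a was at 24.9, 28.5, 27.3 and 27.5 CPM with exposure and 24.2 and 23.2 CPM without, and Cpt1a, which admits fatty acids to mitochondria, was at 2.02, 1.01, 1.19 and 1.11 CPM with exposure and 1.25 and 1.27 CPM without.

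The lists of embryonic patterning are small, so that the shares over all genes (9.1% above and 4.65% below) would come to only a few members in each, and their counts are given as a description. In the epiblast list 0 of 17 lay above both controls. In the primitive streak list 0 of 26 lay above and Fst alone lay below. Of 16 genes of Nodal and Activin signalling 0 lay above and 2 below, of 33 Wnt genes 0 and 2, and of 21 FGF genes 0 and 1. Of 22 genes of BMP signalling 1 lay above and 0 below, of 17 of definitive endoderm and node 1 and 1, of 14 Hedgehog genes 0 and 1, and of 16 neural plate genes 0 and 0. Sfrp1, a secreted Wnt antagonist, was at 81.2, 82.8, 95.9 and 86.5 CPM with exposure and 96.6 and 103 CPM without. Of the 16 retinoic acid genes and the 7 Hox genes, 0 lay beyond both controls in either direction. The Hox list had a median log2 fold change of -0.67 in the low libraries and 0.50 in the high libraries against the same 2 controls, and pooling gave -0.15. The low libraries were unlike each other, however. The list's mean log2 value was 1.31 in low 1 and 2.32 in low 2, against 2.65 and 2.32 in the controls. By this mean low 1 alone lay below both controls, and both high libraries lay above them. With 7 genes, a dose effect cannot be read from these medians. Imprinted genes (29), DNA methylation enzymes (19), glycolysis (26) and extracellular matrix (24) had 0 in either direction too.

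For extraembryonic genes the 2 controls lay far apart. The 35 genes of visceral and parietal endoderm had a median log2 fold change of 0.33, 11 were higher at an unadjusted p under 0.05, and 4 (11.4%) lay above both controls and 1 (2.86%) below, close to the shares over all genes of 9.1% and 4.65%. Apoa1, a lipoprotein component, was at 238, 243, 234 and 299 CPM in the exposed libraries, against 212 and 124 CPM, and Amn, a receptor subunit for vitamin uptake, at 63.2, 70.0, 65.4 and 73.3 CPM with exposure and 60.0 and 36.3 CPM without. Control 2 was the lowest library for both. The summed level of the 35 genes was 3755 to 5195 CPM in the exposed libraries and 5585 and 2759 CPM in the controls, so the exposed range lay between the controls, and the median was -0.0087 without control 2 and 0.71 without control 1. In pooled tissue, fewer cells of a type and less RNA per cell cannot be told apart. Over the trophoblast list the summed level was 1346 to 1563 CPM in the exposed libraries and 1396 and 1151 CPM in the controls, and 0 of 22 genes lay beyond both controls. The epiblast list summed to 2572 to 3558 CPM, against 2921 and 3353 CPM. The part of tissue composition in the shifts of the folding, energy and ribosome lists was not tested.

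**Figure D3:**
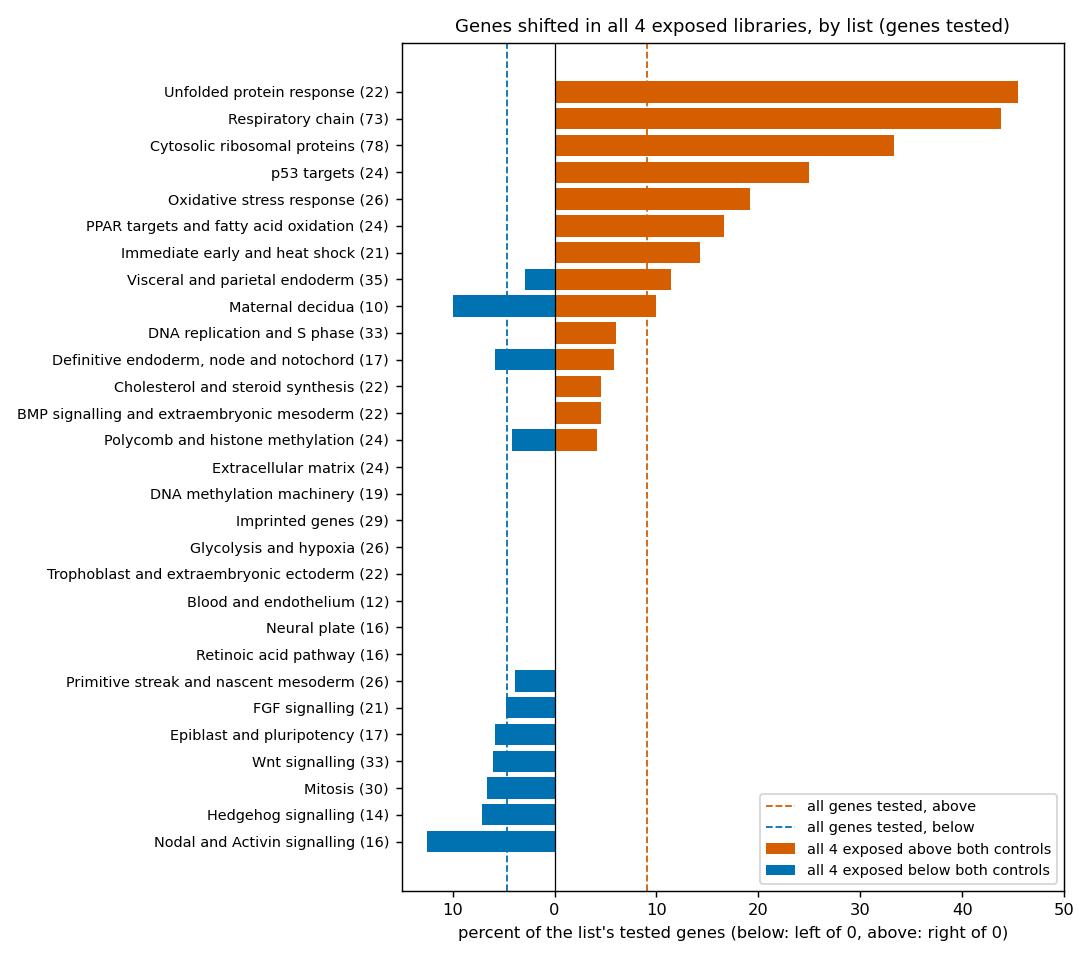
Bars give the percent of each list's tested genes with all 4 exposed libraries above both controls (right of 0) or below both (left of 0), for lists with 10 or more genes tested, and dashed lines give the same over all 12987 genes (9.1% and 4.65%). The unfolded protein response, respiratory chain and ribosomal protein lists reach 45.5%, 43.8% and 33.3% above, with no bar below.

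Genes shifted in all 4 exposed libraries also differed from the rest in genomic span, a feature that the comparison did not use and that was looked at after the values were seen. The median span was 13540 bases among genes above both controls and 30648 among genes below, against 23684.5 over all genes tested with coordinates. With genes ranked by span in 5 equal groups, 14.8% of the shortest lay above both controls, then 11.8%, 9.39% and 6.56%, and 2.99% of the longest. Below both controls lay 5.08% of the shortest, then 2.76%, 4.04% and 4.425%, and 6.83% of the longest, so that share did not change steadily with span. RefSeq pseudogenes, with a median span of 843 bases, went the other way from short genes at large (20.1% below, 3.66% above). Their part in the shares of the shortest group was not tested. The 3 lists hold short genes (median span 10.9 kb for the unfolded protein response, 7.21 kb for the respiratory chain and 3.27 kb for ribosomal proteins). Without them, 335 of 2457 genes in the shortest group (13.6%) lay above both controls. Of those with a mean CPM above the median of all genes, 170 of 904 (18.8%) did. Taken library by library, however, the groups overlapped. The median deviation of the shortest group minus that of the longest was 0.0047 in low 1, 0.060 in low 2, 0.049 in high 1 and -0.047 in high 2, against -0.040 and -0.039 in the controls. High 2 lay with the controls. Genes over 100 kb made up 4.01% of the genes above both controls, 22.1% of those below and 13.4% of all.

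**Figure D4:**
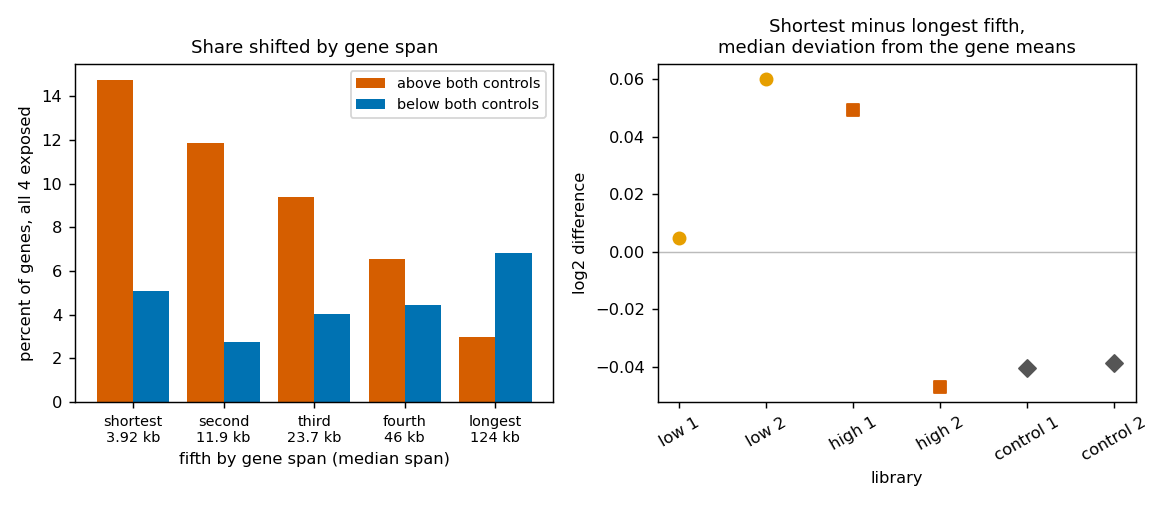
Left, the percent of genes with all 4 exposed libraries above or below both controls, in 5 equal groups by gene span. Right, for each library, the median log2 deviation of the shortest group minus that of the longest: low 2 and high 1 are highest at 0.060 and 0.049, and high 2 lies at -0.047 beside the controls.

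Methylation at the starts of the named genes was read in the other deposited table, percent methylation of 100-base tiles in 6 exposed and 3 control libraries whose tissue is not given either. Of the 10 higher and 10 lower genes with the smallest p, 16 had tiles within 1 kb of a RefSeq start, 136 tiles in all, and limma called 0 of them (smallest adjusted p 0.641). In 15 of the 16 the mean methylation of the controls was under 10%. Around the start of Scand1, 7 tiles averaged 9.10% ± 1.11 in exposed libraries and 8.88% ± 1.32 in controls (SD, n = 6 and 3). Around Cox5a, 8 tiles averaged 8.97% ± 0.691 against 9.56% ± 1.28. Pop5 had the highest level, at 18.2% ± 0.936 against 18.9% ± 1.61. The differences over the 16 genes ran from -2.06 percentage points at Mrps24 to 1.96 at Tfrc, where 2 tiles averaged 7.46% ± 0.741 against 5.50% ± 0.191. The difference exceeded the SD of both groups at Tfrc, Qk, Nr2f6 and Dzip3 and did not at the other 12 genes, and the coverage behind each tile is unknown.

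Over all 141251 tiles, 1 was called (0.000708%), a tile on chromosome 6 (23839901 to 23840000) that lies inside the RefSeq span of Cadps2 and 529 bases from a start of that gene, which encodes an activator of vesicle secretion. It was at 4.11%, 5.04% and 4.21% in the low libraries and 3.27%, 5.65% and 2.27% in the high libraries, against 16.5%, 15.8% and 16.5% in the controls (difference -12.2 percentage points, SE 0.796, adjusted p = 0.0390). All 6 exposed values were far below the controls. The call was lost with a logit scale (adjusted p = 0.251), with the 3-group fit (adjusted p = 0.172), and without any 1 library other than high 3 (adjusted p from 0.0605 to 0.330). The difference itself lay between -12.5 and -11.8 percentage points with each library left out in turn. In the RNA libraries Cadps2 was at 4.13, 5.55, 5.11 and 4.24 CPM in the exposed libraries, against 5.53 and 5.84 CPM in the controls, and the groups overlapped (a log2 fold change of -0.22 with an SE of 0.12, adjusted p = 0.943).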

How the data were processed

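The authors deposited expression as CPM per gene and methylation as percent per 100-base tile, per the file headers. Programs listed are Bowtie 0.12.2, Bowtie2, TopHat and Bismark, with edgeR, methylKit, SAMtools and Trim Galore, all without a role, per the submitters' processing notes. Builds mm8 and mm10 are named there too. Gene positions in the expression table matched RefSeq GRCm38.p6 (87.98% of starts within 1000 bases). The CPM table also holds 3 lines without a gene (20.8 to 22.9% of a column for alignments that are not unique, 6.31 to 6.83% outside features, 0.444 to 0.470% ambiguous), which stayed out of all tests. The CPM were whole multiples of 1 step per column within a tolerance of 0.01 in 100% of values, but the table does not give read counts, so the test for normalized values was used and the planned count tests were not run.

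Genes that reached 1 CPM in at least 2 libraries were tested with limma 3.58.1 (R 4.3.3) on log2(CPM + 1) with a mean-variance trend, 4 exposed against 2 control libraries in 1 fit with 4 residual degrees of freedom, and Benjamini-Hochberg adjustment over 12987 genes at 0.05. Shifts beyond both controls and list counts are descriptions with no test. High minus low comes from a 3-group fit. Tiles were fitted on percent methylation without a trend. The fit was tested on simulated data.

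Per direction, the text names the 10 annotated genes with the smallest p and a mean of at least 5 CPM among those beyond both controls, those with the widest gap, the predicted genes with the widest gap, up to 2 members per list by p, and further members to show a list. The members, lists and rules were chosen with earlier results of these data known. Sequences are from RefSeq (GRCm38.p6). Promoters were found for 20 of 22 unfolded protein response genes and 61 of 73 respiratory chain genes. A comparison of promoter features between all shifted genes was void, since 68.7% of the lower genes had a promoter. The result for 1 gene is not reported here.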

Additional observations from a re-analysis of the deposited data

Results flagged for a closer look

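In 6 of the 90 groups examined (84 named genes and 6 tiles), 1 of the exposed libraries stood far from the others, by a gap measured as a share of the group's range. Chance alone flags about 1 in 20 groups. High 2 stood apart in 3 genes. In Qk it was at 144 CPM with the other exposed libraries at 127 to 129 CPM (gap 0.887 of the range), against 150 and 159 CPM in the controls. In Foxa2, a factor of the node and definitive endoderm, it was at 25.2 CPM with the others at 32.2 to 33.5 CPM (0.865), against 35.95 and 36.4 CPM. In Apoa1 it was at 299 CPM with the others at 234 to 243 CPM (0.848), against 212 and 124 CPM. High 1 stood apart in Phlda3, at 8.73 CPM with the others at 7.25 to 7.38 CPM (0.902), and in Cdc6, a licensing factor of DNA replication, at 68.9 CPM with the others at 72.5 to 73.0 CPM (0.892). Low 2 stood apart in Sfmbt2, an imprinted Polycomb gene, at 11.4 CPM with the others at 23.3 to 24.3 CPM (0.943), against 14.7 and 9.38 CPM in the controls. In Qk, Foxa2, Apoa1 and Phlda3 the exposed libraries did not overlap the controls, and in Cdc6 and Sfmbt2 they did.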

How the results depend on the processing

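Over 15 alternative settings for expression, limma called 0 genes in 14 and 1 gene, Gm23935, with the 3-group fit (1 higher, adjusted p = 0.0494). The higher and lower counts beyond both controls kept within 1.5 times under the other scalings and filters. A change of pseudocount cannot alter these counts, since they rest on the order of the libraries alone. Without 1 library the count above both controls was 1486 to 3141 and the count below 732 to 2456, since fewer libraries then have to lie beyond each other. The count above moved by over 1.5 times without low 1 (1906), control 1 (3141) and control 2 (2777), and the count below without low 1 (1106), high 1 (1048), high 2 (1166), control 1 (2456) and control 2 (1649). Leaving out a control leaves a single control, assumed to vary like the exposed libraries. Of 84 named genes, 80 kept their direction under every alternative. Many of them were chosen for lying beyond both controls, and leaving out a library cannot reverse such a gene. With single libraries left out, the log2 fold change of Hoxa2 ran from -0.41 to 0.025, of Bmp2 from -0.0039 to 0.19, of Lamc1 from -0.88 to 0.15 and of Xist from -0.42 to 0.020. Medians of 18 of 32 lists changed sign under some alternative, but those of the unfolded protein response, the respiratory chain and ribosomal proteins did not. These lists were singled out by their members above both controls, which favours a kept sign. Other lists kept their sign too, among them those of Nodal and Activin, FGF and BMP signalling. The called tile count was 0 with the logit, 0 with the 3-group fit, 0 with the replicate block and 0 to 3 without 1 library, and the cause was not tested. Same-numbered RNA libraries deviated together little (correlations of 0.090, 0.0035 and -0.073 for low with high, low with control and high with control), so the numbers were not taken as pairs, and the replicate block called 0 genes. Count tests on recovered reads were not run, since the table could not be turned back into reads.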
